A study of Mus musculus with 8 samples.

Results

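A set of 7 genes of the complement system that act downstream of its starter C1q were followed in the cortex of APP/PS1 mice given bexarotene. They encode the central components C3 and C4b, the anaphylatoxin receptors C3ar1 and C5ar1, the inhibitor of the first complement proteases Serping1, and the chains Itgam and Itgb2 of complement receptor 3. The genes were taken by symbol from the deposited count table, each with its row of highest mean count, and are 7 of its 22869 gene symbols. All 7 passed the filter on low counts. The libraries were 4 from bexarotene-treated mice, set against 4 vehicle libraries, whose mice received 0.2 mg/kg of glycerol. Mice of both groups were of the C57BL/6 strain and carried the APP/PS1 genotype, transgenes for mutant human amyloid precursor protein and presenilin that lead to amyloid plaques, so no animal without plaque-forming transgenes was compared. How much bexarotene was given and for how long, how old the mice were, their sex, the promoters of the transgenes and how many mice made up a library: none of this is given in the sources used here. P-values therefore measure only the spread between these libraries, which may be partly technical. The vehicle libraries differ in Xist and Y-linked transcripts (below), so they are not all technical repeats of the same RNA.

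Complement marks particles for removal in a cascade. C1q binds a target and activates the proteases C1r and C1s, which Serping1 (C1 inhibitor) blocks. These proteases cleave C4, and C4 and C2 fragments form an enzyme that cleaves C3. Fragments of C3 stay on the target and are bound by complement receptor 3, a beta-2 integrin on microglia and other myeloid cells, while small fragments of C3 and C5 signal through C3ar1 and C5ar1. In brain with amyloid plaques, microglia and reactive astrocytes are known sources of complement RNA, and the liver is the main source of C3 in plasma. Bexarotene is an agonist of retinoid X receptors, nuclear receptors that pair with others to bind DNA.

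The counts of the 7 genes ranged from 18 for C3 in vehicle replicate 1 to 5679 for C4b in bexarotene replicate 1, in libraries with 60106192 to 76542067 counts in the bexarotene group and 42413825 to 60955403 in the vehicle group. The libraries did not separate by treatment on the first principal component, which set replicates 1 and 3 apart from replicates 2 and 4 in each group. Striatal neuron markers summed to 618 to 856 CPM (counts scaled to library size) in bexarotene replicates 1 and 3. In bexarotene replicates 2 and 4 they summed to 200 to 212 CPM. Vehicle replicates 1 to 4 held 465, 176, 221 and 226 CPM, so vehicle replicate 3 lay beside replicate 4. All 4 bexarotene libraries held both Xist (84.7 to 218 CPM) and Y-linked transcripts (9.81 to 88.5 CPM over 4 genes). Vehicle replicates 1 and 3 held Xist at 248 and 307 CPM with at most 0.282 CPM of the Y-linked genes, and vehicle replicates 2 and 4 held 134 and 141 CPM of the Y-linked genes with at most 0.861 CPM of Xist. The split of replicates 1 and 3 from 2 and 4 is that of the first principal component. Values within each side are given for each gene. Among the vehicle libraries this split is also that of Xist against Y-linked transcripts. Among the bexarotene libraries, which all held both, it is not. Values within replicates 1 and 3 thus use the Xist vehicle libraries. Those within replicates 2 and 4 use the Y-linked ones. Holding both kinds of transcript cannot be told apart from treatment.

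No gene of the set passed the test. With the edgeR quasi-likelihood model, 0 of 7 had an adjusted p below 0.05, the threshold used, where 0.00622% of the 16069 genes tested did. The adjusted p of the 7 genes ran from 0.531 to 0.878. At an unadjusted p under 0.05, 2 of 7 were higher and 0 lower with bexarotene, beside 4.88% of all genes higher and 3.89% lower (8.77% in either direction). DESeq2 called 97 genes in the table, and 0 of the 7; it gave no adjusted p for C3, C3ar1, C5ar1 and Serping1. The log2 fold change, bexarotene over vehicle, was above 0 in all 7, as it was in 50.2% of the genes tested. Its median was 0.34 over the 7 genes, beside 0.0009 over all genes. In 0 of the 7 did the groups separate without overlap, while 5.77% of all genes did (3.61% higher and 2.16% lower with bexarotene).

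**Figure D1:**
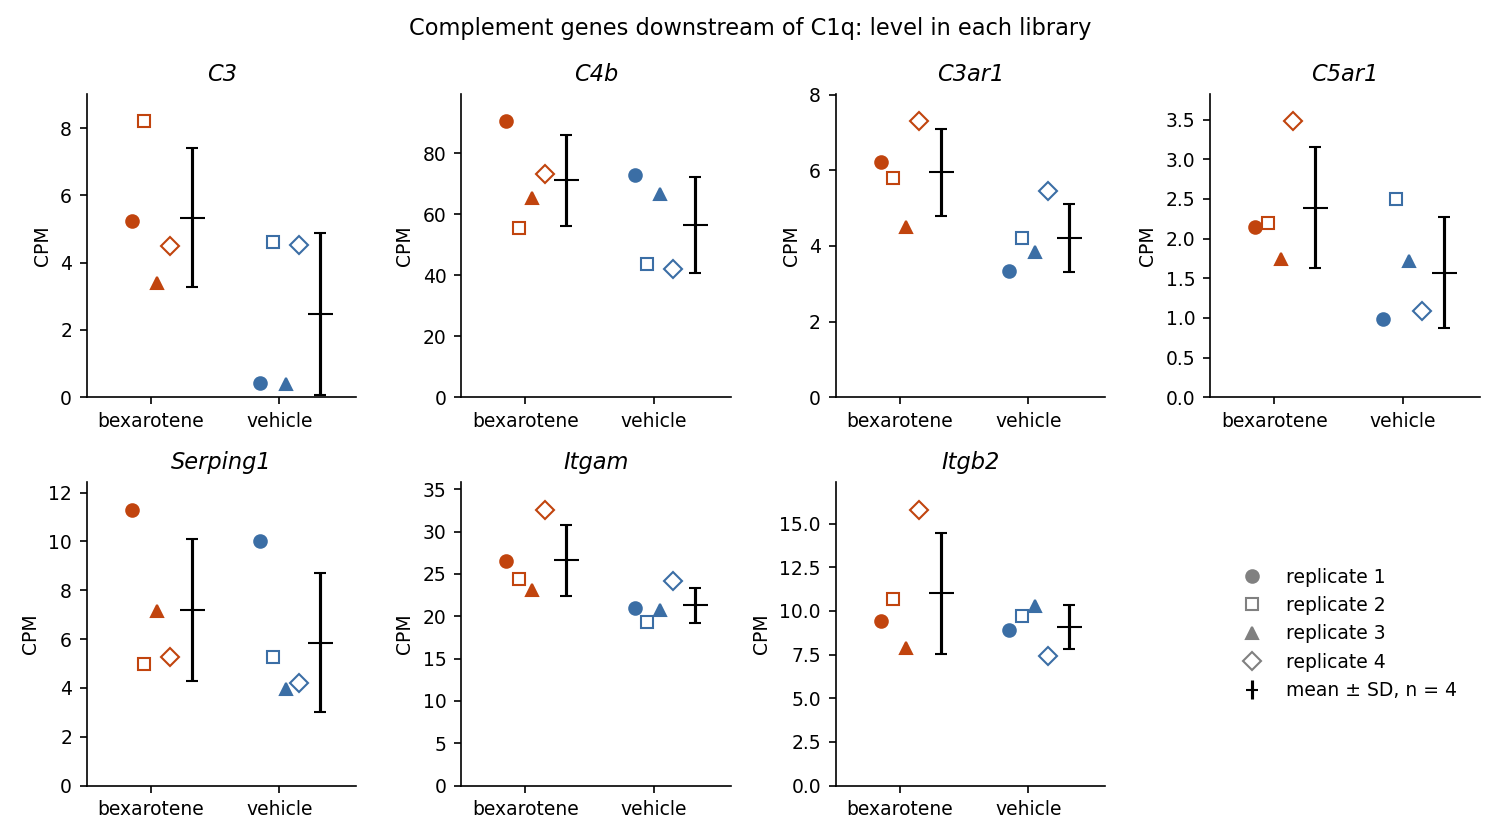
Level of each gene in CPM in every library, with bexarotene left of vehicle; symbols give the replicate number and black marks the mean ± SD of 4 libraries. The groups overlap in each of the 7 panels, and C3 is near 0 in vehicle replicates 1 and 3 (0.423 and 0.377 CPM).

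Levels differed widely between the genes. Per kilobase of transcript, C4b was the highest with bexarotene at 13.2 ± 2.76 CPM per kb (SD, n = 4), against 10.5 ± 2.95 with vehicle. Itgam followed at 5.69 ± 0.901 with bexarotene and 4.55 ± 0.446 CPM per kb with vehicle. Serping1 (4.06 ± 1.65 with bexarotene, 3.32 ± 1.6 with vehicle) and Itgb2 (3.69 ± 1.16 with bexarotene, 3.06 ± 0.428 with vehicle) were next and lay within each other's spread. The remaining genes were at 1.38 ± 0.267 (C3ar1), 1.04 ± 0.401 (C3) and 0.94 ± 0.298 CPM per kb (C5ar1) with bexarotene. With vehicle these were at 0.979 ± 0.21, 0.484 ± 0.469 and 0.62 ± 0.274 CPM per kb, so that C3 and C5ar1 changed places within their spread.

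C3, the component on which the cascade's routes converge, had the highest log2 fold change of the set and the widest scatter. Its level was 5.25, 8.21, 3.39 and 4.51 CPM in bexarotene replicates 1 to 4, against 0.423, 4.62, 0.377 and 4.52 CPM in vehicle replicates 1 to 4. Vehicle replicates 1 and 3 thus stood far below every other library, while vehicle replicates 2 and 4 lay inside the bexarotene range. The mean was 5.34 ± 2.06 CPM with bexarotene against 2.48 ± 2.41 CPM with vehicle (SD, n = 4). This is a log2 fold change of 1.09 ± 0.81 (SE) at an adjusted p of 0.767 (edgeR quasi-likelihood), whereas exact permutation, two-sided, yielded p = 0.20, where 0.0286 is the smallest p that 4 against 4 allows. Replicates 1 and 3 alone gave a log2 difference of 3.30, and replicates 2 and 4 alone one of 0.41. In vehicle, replicates 1 and 3 are the Xist libraries and 2 and 4 the Y-linked ones. The split and sex cannot be told apart there. Without vehicle replicates 1 and 3, a setting chosen after the data were seen, the log2 fold change was 0.23 ± 0.33. With a term for replicates 1 and 3 against 2 and 4 it was 1.75 ± 0.60, with an adjusted p of 0.309 (edgeR quasi-likelihood). That split is the one seen in the first principal component of these same libraries, not one given by the labels.

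C3 and the transcripts of hepatocytes were low in the same libraries. The 9 liver markers, among them albumin and apolipoprotein A-I, summed to 43.7 to 128 CPM with bexarotene and to 1.41, 91.4, 5.63 and 131 CPM in vehicle replicates 1 to 4. Alb itself was at 30.3, 69.4, 22.6 and 25.2 CPM in bexarotene replicates 1 to 4, against 0.0705, 53.0, 2.98 and 82.4 CPM in vehicle replicates 1 to 4. Its lowest libraries, vehicle replicates 1 and 3, were those in which C3 was near 0, and they are also the libraries with Xist and almost no Y-linked transcripts. All 9 liver markers were tested, 0 passed in either direction, and their median log2 fold change was 0.51. Bexarotene replicate 2 had both the highest C3 and the highest sum of choroid plexus markers. These summed to 1463 CPM there, 77.0 to 229 CPM in the other bexarotene libraries and 18.6 to 41.8 CPM with vehicle. The marker Ttr alone gave 1397 CPM in bexarotene replicate 2, 58.7 to 213 CPM in the others and 6.14 to 33.0 CPM with vehicle. The part of liver or choroid plexus transcripts, or of sex, in the C3 difference was not tested.

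Likeness to other genes was measured as the root mean square difference between mean-centred log2 CPM values over the 8 libraries, across 13974 other genes with a mean of at least 1 CPM. For C3 the nearest were Apoa1 (0.404), which encodes the main protein of high-density lipoprotein, Hp (0.41), which encodes the haemoglobin-binding plasma protein haptoglobin, and Ambp (0.474), which encodes a further plasma protein; C3 itself had a spread of 1.56 on this scale. Its distance from the other genes of the set was larger, between 1.30 for C3ar1 and 1.69 for C4b.

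**Figure D2:**
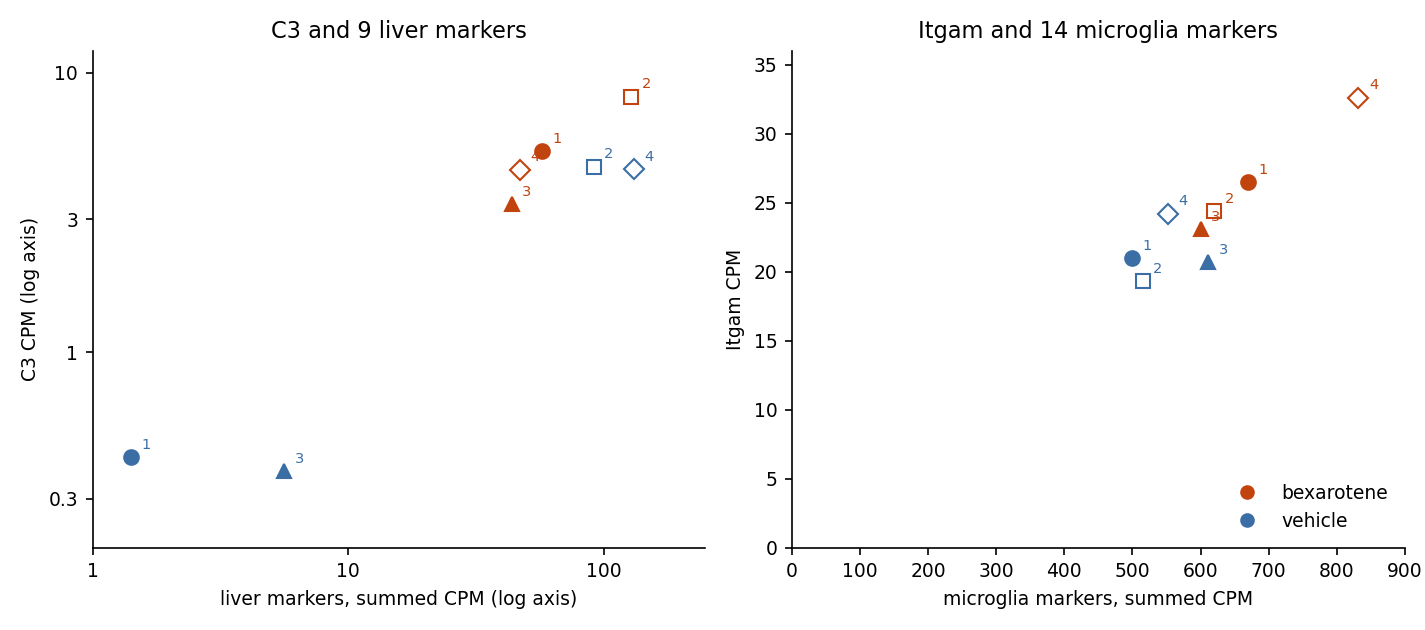
Left, C3 against the summed liver markers on log axes; right, Itgam against the summed microglia markers on linear axes, one point per library in CPM with its replicate number. C3 is near 0.4 CPM where liver markers are at 1.41 and 5.63 CPM (vehicle replicates 1 and 3), and Itgam is highest (32.6 CPM) where the microglia markers are highest (832 CPM, bexarotene replicate 4).

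The promoter of C3 is shown because this gene had the largest fold change, and that of Itgam because it had the smallest p of the set. RefSeq's promoter table (build GRCm38.p6, 250 bases before to 50 after the start of the gene) matched 4 of the 7 genes: C3, C3ar1, C5ar1 and Itgam. These sequences come from a later build than the one named for the counts (mm9) and were matched by symbol. The C3 window is chr17:57228087-57228386, - strand, and the Itgam window is chr7:128062390-128062689, + strand. Capitals mark AGGTCA, the core motif of nuclear receptors, and GAGGAA, a core of sites for the myeloid factor PU.1, on either strand.
C3: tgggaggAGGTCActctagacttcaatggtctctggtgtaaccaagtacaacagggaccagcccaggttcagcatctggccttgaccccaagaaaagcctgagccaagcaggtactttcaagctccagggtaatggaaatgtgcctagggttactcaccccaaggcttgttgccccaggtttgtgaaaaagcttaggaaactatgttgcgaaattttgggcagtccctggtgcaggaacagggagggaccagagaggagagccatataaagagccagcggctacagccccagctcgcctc
Itgam: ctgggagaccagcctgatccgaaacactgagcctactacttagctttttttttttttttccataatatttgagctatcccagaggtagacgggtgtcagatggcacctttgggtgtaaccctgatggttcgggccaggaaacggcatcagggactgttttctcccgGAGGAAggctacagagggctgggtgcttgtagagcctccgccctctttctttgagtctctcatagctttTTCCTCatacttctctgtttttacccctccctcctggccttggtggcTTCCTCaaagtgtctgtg
AGGTCA occurred once in the C3 window, and at least once in 16.3% of the 32851 promoters in the table. Direct repeats of AGGTCA spaced by 1, 4 or 5 bases, the arrangements of retinoid X receptor pairs, were in 0.0396%, 0.0152% and 0.00913% of all promoters and in 0 of the 4 windows. GAGGAA occurred 3 times in the Itgam window, with first bases at -84, -15 and 32 relative to the start (position 0). It occurred at least once in 28.3% of all promoters, and the share with 3 copies was not counted. The core of the interferon-stimulated response element was in 3.44% of all promoters and in 0 of the 4 windows. The windows of C3ar1 and C5ar1 held 0 copies of any of these motifs.

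C4b, the mouse C4 gene whose product forms the C3-cleaving enzyme, was the most abundant transcript of the set. Its level was 90.6, 55.5, 65.3 and 73.4 CPM in bexarotene replicates 1 to 4, against 73.0, 43.7, 66.7 and 41.9 CPM in vehicle replicates 1 to 4. Both groups were higher in replicate 1 than in replicate 2, and vehicle replicates 1 and 3 reached into the bexarotene range. The mean was 71.2 ± 14.9 CPM with bexarotene against 56.4 ± 15.8 CPM with vehicle (SD, n = 4), a log2 fold change of 0.34 ± 0.21 (SE) with an adjusted p of 0.718 (edgeR quasi-likelihood); exact permutation, two-sided, yielded p = 0.229. Replicates 1 and 3 alone gave a log2 difference of 0.14, and replicates 2 and 4 alone one of 0.58. Without bexarotene replicate 1 the log2 fold change was 0.20. C4a, a near-identical neighbouring copy, can share reads with C4b, and C4b counts are uncertain to that extent. C4a averaged 1.27 ± 0.457 CPM with bexarotene against 1.48 ± 0.756 CPM with vehicle, and the ratio of C4b to C4a was 59.2 ± 13.5 with bexarotene and 45.3 ± 21.0 with vehicle (SD, n = 4; exact two-sided permutation p = 0.257).

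Serping1, a serine protease inhibitor that stops C1r and C1s, had the highest p of the set. Its level was 11.3, 4.98, 7.17 and 5.27 CPM in bexarotene replicates 1 to 4, against 10, 5.27, 3.96 and 4.2 CPM in vehicle replicates 1 to 4. Replicate 1 was the highest library of each group, and the remaining libraries overlapped. Means were 7.18 ± 2.91 CPM with bexarotene against 5.86 ± 2.83 CPM with vehicle (SD, n = 4), with a log2 fold change of 0.30 ± 0.36 (SE) and an adjusted p of 0.878 (edgeR quasi-likelihood). Leaving out bexarotene replicate 1 turned the log2 fold change to -0.0096. Leaving out a vehicle library gave 0.68 for replicate 1, 0.15 for replicate 3 and 0.17 for replicate 4. Replicates 1 and 3 alone gave a log2 difference of 0.51, and replicates 2 and 4 alone one of 0.12.

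For Serping1 the nearest genes were Bmp6 (0.138), a growth factor of the bone morphogenetic protein family, Bgn (0.165), which encodes the matrix proteoglycan biglycan, and Slc13a3 (0.186), a dicarboxylate transporter. Markers of meningeal fibroblasts summed to 110, 61.1, 84.2 and 55.4 CPM in bexarotene replicates 1 to 4 and to 131, 52.6, 64.5 and 36.7 CPM in vehicle replicates 1 to 4, so replicate 1 was again the highest of each group. All 10 of these markers were tested and 0 passed, with a median log2 fold change of 0.17. Reactive astrocyte markers summed to 432 to 737 CPM with bexarotene and 255 to 513 CPM with vehicle; all 7 were tested and 0 passed, with a median of 0.30. The part of meningeal or astrocyte transcripts in the values of Serping1 and C4b was not tested. The nearest genes of C4b were Stk10 (0.0982), a serine/threonine kinase, Asap3 (0.109), a regulator of ARF GTPases, and Arv1 (0.14), a lipid transport regulator of the endoplasmic reticulum.

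**Figure D3:**
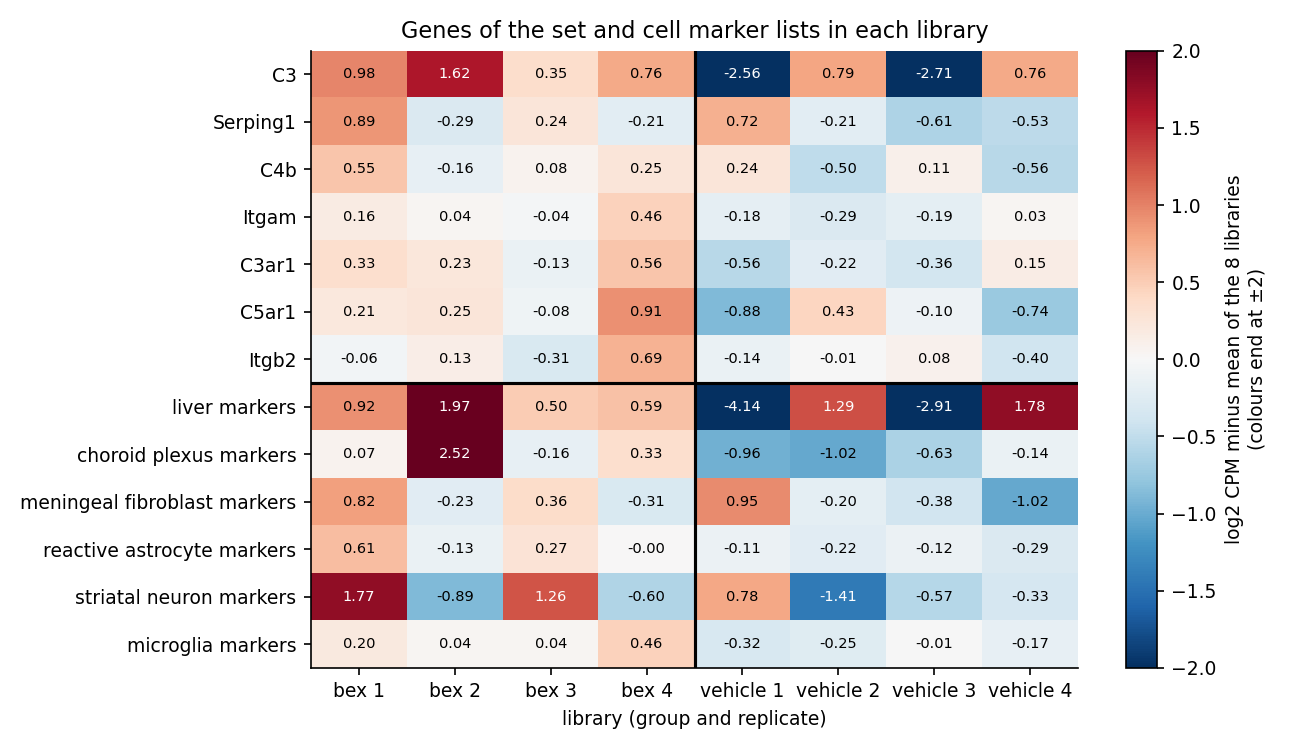
Log2 CPM minus the mean of the 8 libraries for the 7 genes (top) and for 6 lists of cell markers, averaged over their tested members (bottom), with bexarotene libraries left of vehicle libraries. C3 and the liver markers are both lowest in vehicle replicates 1 and 3 (C3 at -2.56 and -2.71, liver at -4.14 and -2.91), and bexarotene replicate 4 is highest for Itgam, C3ar1, C5ar1, Itgb2 and the microglia markers.

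Complement receptor 3 is made of Itgam (CD11b), the chain that binds C3 fragments, and Itgb2 (CD18), the chain shared by all leukocyte beta-2 integrins. Itgam was at 26.5, 24.4, 23.1 and 32.6 CPM in bexarotene replicates 1 to 4, against 21.0, 19.3, 20.7 and 24.2 CPM in vehicle replicates 1 to 4. A total of 3 bexarotene libraries lay above all vehicle libraries, and vehicle replicate 4 exceeded bexarotene replicate 3. The mean was 26.6 ± 4.22 CPM with bexarotene against 21.3 ± 2.09 CPM with vehicle (SD, n = 4), and the log2 fold change was 0.32 ± 0.12 (SE). Before adjustment p was 0.0258, and after it 0.531 (edgeR quasi-likelihood, adjusted p), with p = 0.0571 in an exact two-sided permutation test. Replicates 1 and 3 alone gave a log2 difference of 0.25, and replicates 2 and 4 alone one of 0.38. Its 2 rows in the table, for 2 RefSeq transcripts, held identical counts.

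Itgb2 was at 9.40, 10.7, 7.87 and 15.8 CPM in bexarotene replicates 1 to 4, against 8.89, 9.72, 10.3 and 7.40 CPM in vehicle replicates 1 to 4. A single library, bexarotene replicate 4, stood above the rest, and bexarotene replicate 3 was lower than 3 of the vehicle libraries. The mean was 11 ± 3.46 CPM with bexarotene against 9.09 ± 1.27 CPM with vehicle (SD, n = 4), a log2 fold change of 0.27 ± 0.21 (SE) with an adjusted p of 0.772 (edgeR quasi-likelihood). Without bexarotene replicate 4 the log2 fold change was 0.04. Replicates 1 and 3 alone gave a log2 difference of -0.16, and replicates 2 and 4 alone one of 0.62. The ratio of Itgam to Itgb2 was 2.52 ± 0.42 with bexarotene and 2.41 ± 0.604 with vehicle (SD, n = 4; exact two-sided permutation p = 0.714).

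C3ar1, the receptor of the C3a fragment, was at 6.21, 5.79, 4.51 and 7.30 CPM in bexarotene replicates 1 to 4, against 3.34, 4.22, 3.84 and 5.46 CPM in vehicle replicates 1 to 4. All vehicle libraries but replicate 4 lay below every bexarotene library. The mean was 5.95 ± 1.15 CPM with bexarotene against 4.21 ± 0.906 CPM with vehicle (SD, n = 4), a log2 fold change of 0.50 ± 0.20 (SE). Its p was 0.0329 before and 0.556 after adjustment (edgeR quasi-likelihood), with p = 0.0571 in an exact two-sided permutation test. Replicates 1 and 3 alone differed by 0.56 in log2 terms, and replicates 2 and 4 alone by 0.43.

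C5ar1, the receptor of the C5a fragment, was the lowest of the set per kilobase with bexarotene. Its level was 2.14, 2.19, 1.74 and 3.48 CPM in bexarotene replicates 1 to 4, against 0.988, 2.50, 1.72 and 1.09 CPM in vehicle replicates 1 to 4. Vehicle replicate 2 exceeded 3 of the bexarotene libraries. Means were 2.39 ± 0.758 CPM with bexarotene against 1.57 ± 0.696 CPM with vehicle (SD, n = 4), with a log2 fold change of 0.60 ± 0.35 (SE) and an adjusted p of 0.692 (edgeR quasi-likelihood). Dropping bexarotene replicate 4 gave 0.36, and dropping vehicle replicate 2 gave 0.92. In log2 terms, replicates 1 and 3 alone differed by 0.55 and replicates 2 and 4 alone by 0.73. Hc, which encodes mouse C5, the source of its ligand, was at 0.234 to 1.09 CPM with bexarotene and 0.306 to 0.717 CPM with vehicle.

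**Figure D4:**
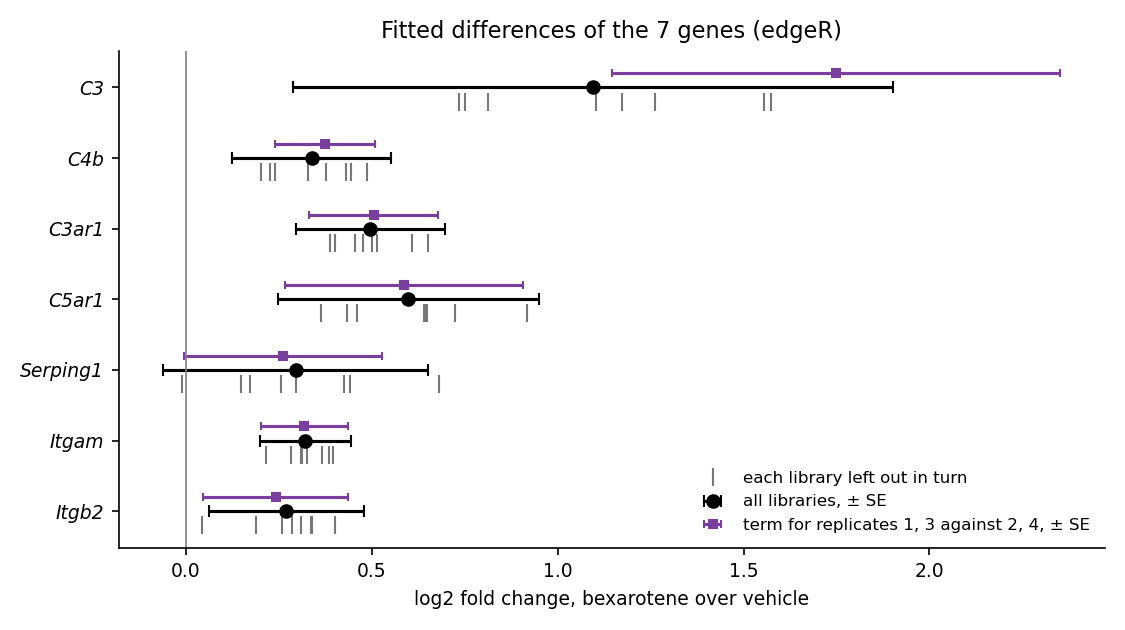
Log2 fold change of each gene, bexarotene over vehicle, with SE in the fit of all 8 libraries (black circles) and with a term for replicates 1 and 3 against 2 and 4 (purple squares); grey ticks show the values with each library left out in turn. All values are above 0 except that of Serping1 without bexarotene replicate 1 (-0.0096).

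Microglia are a known source of the receptors in brain. The 14 microglia markers summed to 670, 620, 600 and 832 CPM in bexarotene replicates 1 to 4 and to 499, 515, 611 and 552 CPM in vehicle replicates 1 to 4. All 14 had a log2 fold change above 0, with a median of 0.36; 9 had an unadjusted p under 0.05 (4.88% of all genes were higher at that level) and 0 passed after adjustment (edgeR quasi-likelihood). In whole cortex, more cells of a type and more RNA per cell cannot be told apart. Per 1000 counts of the microglia markers, a denominator chosen after the data were seen, Itgam was at 39.1 ± 0.468 with bexarotene and 39.3 ± 4.51 with vehicle (SD, n = 4; exact two-sided permutation p = 1). On the same scale Itgb2 was at 15.9 ± 2.77 with bexarotene and 16.8 ± 2.36 with vehicle (p = 0.714, exact permutation test). C3ar1 was at 8.73 ± 0.841 with bexarotene and 7.76 ± 1.64 with vehicle (p = 0.286, exact permutation test), and C5ar1 at 3.45 ± 0.554 with bexarotene and 2.90 ± 1.36 with vehicle (p = 0.343, exact permutation test). The log2 differences of these ratios were 0.19 for C3ar1 and 0.34 for C5ar1, and those of Itgam and Itgb2 were -0.000175 and -0.08.

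Among genes with a like pattern, those nearest to Itgam were Lag3 (0.064), an inhibitory receptor of lymphocytes, Rffl (0.0685), a ubiquitin ligase, and Tmem119 (0.0846), a surface protein of microglia. Nearest to Itgb2 were Havcr2 (0.118), an inhibitory immune receptor, Laptm5 (0.122), a lysosomal protein of immune cells, and Sh3bp2 (0.13), an adaptor of immune signalling. The genes nearest to C3ar1 were F11r (0.119), a junctional adhesion molecule, Slc19a3 (0.12), a thiamine transporter, and Ctsh (0.121), a lysosomal protease. For C5ar1 they were Fam111a (0.221), a protease of antiviral defence, Tlr9 (0.222), a receptor for unmethylated DNA, and Abcb1b (0.229), a drug efflux transporter. Within the set, C3ar1 and Itgam were the closest pair (0.185), followed by Itgam and Itgb2 (0.257). The measure is not scaled for spread, so genes that vary little lie near many others. Itgam itself had a spread of 0.223, less than its distance from Itgb2, against 0.355 for C3ar1 and 0.313 for Itgb2. A shared pattern cannot be read from these distances alone. Markers of neutrophils and monocytes, which also carry these receptors, were scarce. Of 10 such markers, Camp, Elane, Mpo, Retnlg, Ccr2 and Ly6c2 did not pass the count filter, and the 4 that did had a median log2 fold change of -0.31 with 0 called. The summed level of the list was 1.25 to 4.48 CPM with bexarotene and 1.13 to 5.74 CPM with vehicle. Perivascular macrophage markers summed to 5.67 to 10.1 CPM with bexarotene and 4.63 to 12.6 CPM with vehicle; all 6 were tested and 0 passed.

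Across the rest of the complement system, 48 further genes were listed, 37 of them passed the count filter, 10 did not and 1 had no row in the table. None of the 37 passed the test (edgeR quasi-likelihood); before adjustment, p was under 0.05 for 4 that were higher and 0 that were lower with bexarotene, beside 4.88% and 3.89% of all genes tested. Of the 37, 23 had a log2 fold change above 0, beside 50.2% of all genes, with a median of 0.11. The 4 were the C1q chains C1qa, C1qb and C1qc and the chaperone clusterin (Clu), which restrains the terminal complex. Groups did not overlap in 4 of the 37, beside 5.77% of all genes tested (3.61% higher with bexarotene). They were the same 4, which had the smallest p, so the lack of overlap is not separate support. Clu separated narrowly, with a lowest bexarotene library of 785 CPM and a highest vehicle library of 783 CPM. C1qb, whose product starts the cascade, was at 111 ± 17.4 CPM with bexarotene against 67.3 ± 8.17 CPM with vehicle (SD, n = 4), with a log2 fold change of 0.72 ± 0.13 (SE) and an adjusted p of 0.36 (edgeR quasi-likelihood). C1qa and C1qc had log2 fold changes of 0.67 ± 0.14 and 0.53 ± 0.11, both at an adjusted p of 0.36. Clu was at 833 ± 56.4 CPM with bexarotene against 730 ± 55.9 CPM with vehicle, a log2 fold change of 0.19 ± 0.08.

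By role, 12 of 16 classical and lectin pathway genes were tested (7 above 0, median log2 fold change 0.22), as were 6 of 10 alternative and terminal pathway genes (3 above 0, median 0.03). Of 17 regulators, 15 were tested (10 above 0, median 0.17), and of 5 other receptors 4 were tested (3 above 0, median 0.09). Cfb, the protease subunit of the alternative C3-cleaving enzyme, averaged 5.07 ± 0.895 CPM with bexarotene against 3.89 ± 0.693 CPM with vehicle (SD, n = 4), a log2 fold change of 0.38 ± 0.19. The plasma and matrix protein vitronectin (Vtn) had a log2 fold change of 0.43 ± 0.24, C8g, a chain of the terminal complex, 0.76 ± 0.56, and Cr1l, the rodent membrane regulator of C3 and C4 cleavage, 0.17 ± 0.13. C8g was at 0.701 to 1.89 CPM with bexarotene, against 0.40 and 0.197 CPM in vehicle replicates 1 and 3 and 1.07 and 1.12 CPM in vehicle replicates 2 and 4, low in the same libraries as C3.

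Partners and ligands of the beta-2 integrins were tested in 9 of 9 cases. None passed, and 7 of the 9 had a log2 fold change above 0, beside 50.2% of all genes. Before adjustment, p was under 0.05 for 3 genes, which were higher, and for 0 that were lower (edgeR quasi-likelihood). Of all genes, 4.88% were higher and 3.89% lower at that level. The median log2 fold change was 0.34. Fermt3 (kindlin-3), which activates these integrins in blood cells, was at 7.09 ± 1.19 CPM with bexarotene against 4.79 ± 0.897 CPM with vehicle (SD, n = 4), a log2 fold change of 0.57 ± 0.18 with an adjusted p of 0.475 and no overlap between the groups, as in 3.61% of all genes. Apbb1ip, an adaptor between Rap1 and talin, also did not overlap, with a log2 fold change of 0.34 ± 0.13 and an adjusted p of 0.534 (edgeR quasi-likelihood). Fermt3 and Apbb1ip were named for their small p, so their lack of overlap is not separate support. Of the ligands, Icam1 had a log2 fold change of 0.70 ± 0.29 and Icam2 of 0.60 ± 0.33. Itgax, the other complement receptor chain that pairs with Itgb2, was chosen after its values were seen and had a log2 fold change of -0.28, with 1.71 to 5.58 CPM with bexarotene and 3.08 to 6.31 CPM with vehicle.

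**Figure D5:**
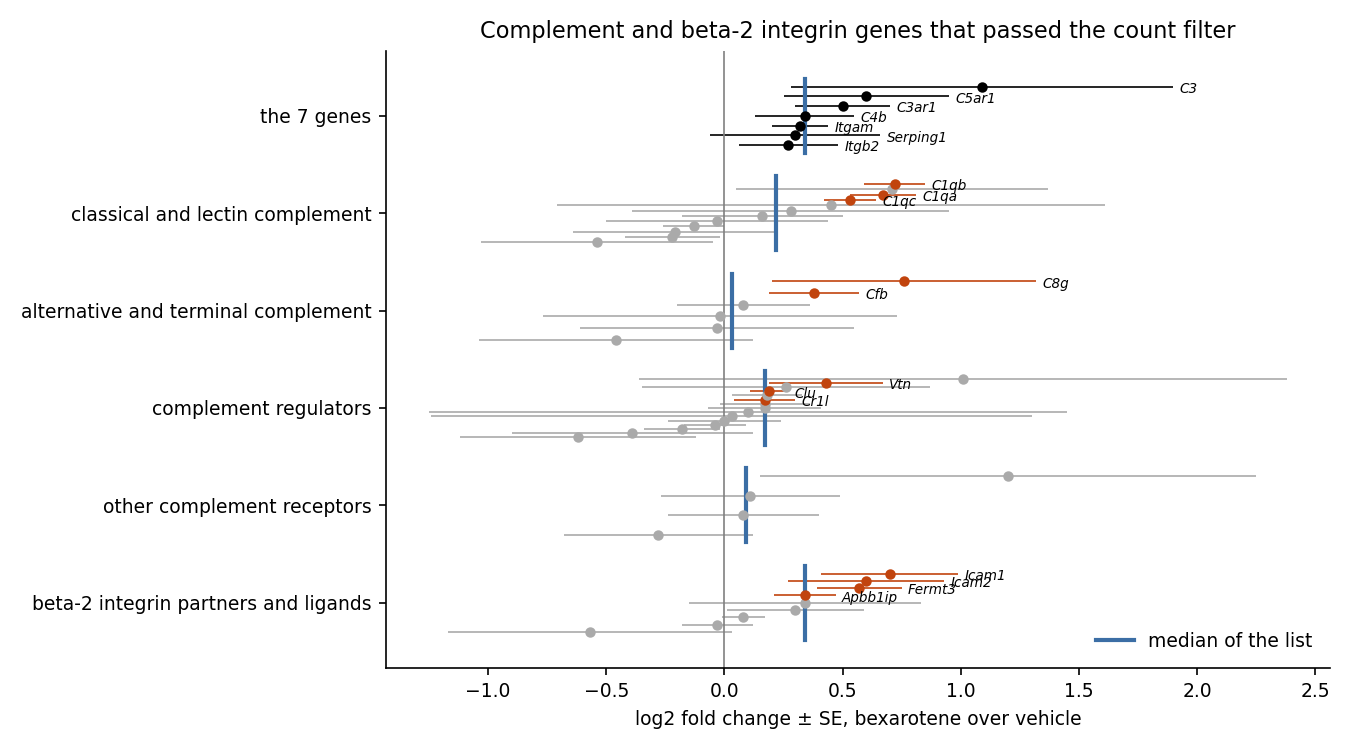
Log2 fold change ± SE, bexarotene over vehicle, of each tested gene by role, with blue bars at the list medians; black marks the 7 genes, orange the other genes named in the text and grey the rest. The medians run from 0.03 (alternative and terminal pathway) to 0.34 (the 7 genes, and the integrin partners and ligands).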

How the data were processed

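RNA of whole cortex was sequenced from TruSeq stranded mRNA libraries, per the labels' protocols. The authors deposited unnormalised counts of reads, 1 row per RefSeq transcript. The submitters' processing notes name mm9, and the series' design text names edgeR for the authors' own analysis. Aligner, counter, strand setting and annotation release: not given in the sources used here; reads of overlapping genes cannot be told apart. Groups and replicate numbers come from the sample titles, and 0 columns of values were left out.

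The table has 28644 rows. Testing used the quasi-likelihood F test of edgeR (4.0.16, in R 4.3.3) after TMM scaling and filterByExpr, with robust dispersions, group as the sole term and Benjamini-Hochberg adjustment over the 21285 rows tested; the steps were tested on simulated data. CPM uses the tested total times the TMM factor. SE values derive from the F statistic. Log2 CPM used a prior count of 2. Exact two-sided permutation tests (scipy 1.17.1) ran over the 8 libraries. Transcript lengths are those of GENCODE M21, matched by accession for 97.0% of rows. Motifs were searched on both strands.

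The 7 genes and the lists of complement genes and cell markers were chosen with earlier results of these data known. The genes named are the 7, the 8 other complement genes and the 4 integrin partners or ligands with the smallest p, and the 3 genes nearest to each of the 7. C4a, Hc, Itgax, Alb and Ttr are outside this rule and were added with their values known. Alternatives were RLE and upper quartile factors, no filter, DESeq2 1.42.0, a replicate block, 1 row per gene and summed rows. Others were a length offset (lowess trend, span 0.3), leaving out each library, and a term for replicates 1 and 3 against 2 and 4. The split behind that term is seen in the first principal component of these libraries and is not given by the labels.

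Both groups have replicates numbered 1 to 4 in their titles. After subtracting group means, libraries sharing a number had correlations over genes of 0.43, 0.28, 0.14 and 0.16, all above 0.1, so the block was fitted. Bexarotene replicate 3 correlated more with vehicle replicate 1 (0.44), and bexarotene replicate 4 more with vehicle replicate 2 (0.23). Pairs and the clusters of replicates therefore cannot be told apart.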

Additional observations from a re-analysis of the deposited data

Results flagged for a closer look

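Of 38 groups of 4 libraries (the 7 genes and the 12 other complement and integrin genes named by p, in both groups), 1 held a library far from the rest. Cfb was at 3.74 CPM in bexarotene replicate 4, against 5.37 to 5.67 CPM in the other bexarotene libraries. Chance alone gives such a gap in about 1 of 20 groups. The same library was the highest of the 8 for Itgam, C3ar1, C5ar1 and Itgb2.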

How the results depend on the processing

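For the 7 genes, 0 of 17 other settings or left-out libraries gave an adjusted p below 0.05 in any gene; the lowest was 0.273, for C3ar1 with the term for replicates 1 and 3 against 2 and 4. That term, whose split was seen in these same libraries, called 3 genes in the whole table. DESeq2 called 97 (70 higher, 27 lower), against 1 otherwise. Leaving out a library gave 1 to 2. With the replicate block, log2 fold changes were 1.72 for C3, 0.36 for C4b, 0.50 for C3ar1, 0.64 for C5ar1, 0.32 for Serping1, 0.31 for Itgam and 0.23 for Itgb2, and the block called 1 gene in the table and changed no call. Leaving out each library, they ranged from 0.74 to 1.58 for C3, 0.20 to 0.49 for C4b, 0.39 to 0.65 for C3ar1, 0.36 to 0.92 for C5ar1, -0.0096 to 0.68 for Serping1, 0.22 to 0.40 for Itgam and 0.04 to 0.40 for Itgb2. Relative to the summed microglia markers, a setting added after the data were seen, Itgam was at -0.000175 and Itgb2 at -0.083; this ratio removes whatever they share with those markers by its construction. Of 124 values recomputed, 121 kept their direction, 0 passed the threshold and 3 reversed; 4 of the 121, from DESeq2, had no adjusted p. The reversed values were those of Serping1 without bexarotene replicate 1, Itgam and Itgb2 just given. The lowest counts, 18 and 21 for C3 in vehicle replicates 1 and 3, limit the precision of its fold change.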

Other observations

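Other cell markers differed between libraries without passing the test, with 0 genes called in each list. Astrocyte markers, all 8 tested, had a median log2 fold change of 0.05 and summed to 3607 to 4269 CPM with bexarotene and 3592 to 5016 CPM with vehicle. Endothelial markers, all 7 tested, had a median of 0.19, with 167 to 212 CPM with bexarotene and 125 to 190 CPM with vehicle. All 8 choroid plexus markers were tested and had a median of 1.36, and 4 were higher at an unadjusted p under 0.05, beside 4.88% of all genes. Cortical projection neuron markers were present throughout, at 1084 to 1856 CPM with bexarotene and 1398 to 1764 CPM with vehicle; all 6 were tested, with a median of -0.22. The 7 striatal markers, all tested, had a median of 0.82 and the 3 red cell markers one of 0.64, with 2.45 to 19.7 CPM of red cell transcripts with bexarotene and 4.26 to 8.74 CPM with vehicle.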
